A study of Vitis vinifera with 156 samples.

Results

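Cabernet Sauvignon buds (grapevine, Vitis vinifera) that had spent their first weeks of chilling at 2 °C or at 11 °C were compared after both had been moved to the same fluctuating regime. The groups were chosen from the sample labels alone. They comprise 12 libraries of buds held at 2 °C before the move and 12 of buds held at 11 °C, 24 of the 70 libraries of the Second library set and 15.4% of all libraries of the series, whose First set holds 86. Another 12 libraries of buds held at 7 °C before the move are shown as the middle level.

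All these buds sat on cuttings in growth chambers, were collected in endodormancy, and received their first temperature (phase I) until day 26 after collection. From day 26 on (phase II) all were kept at 7 ± 5 °C, a regime that cycled between 2 and 12 °C. Each phase I temperature had a chamber of its own, so temperature and chamber cannot be told apart, and phase II took place in another chamber. Buds were sampled at days 34, 41, 55 and 69, with 3 libraries per arm and day. The arms are called here after 2 °C, after 7 °C and after 11 °C. Constant arms, which stayed at 2, 4, 7, 11 or 22 °C throughout, and 3 libraries of pretreatment buds of day 0 are used where stated. The labels do not say whether replicates came from separate vines or cuttings, so p-values measure only the spread between these libraries.

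A grapevine bud in endodormancy does not open even in warmth until it has received enough chilling. While it is dormant it also acclimates, that is, it gains tolerance of freezing, and temperature governs both processes. Gene expression in such buds therefore changes with the current temperature and with the progress of dormancy. The comparison asks whether buds that now share a regime still carry a trace of the earlier temperature in their RNA.

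The deposited table holds counts without gene identifiers. A gene is therefore called by the number of its line in the table, 4 genes are named, and what they encode is not given here. Groups of genes are described by their behaviour in libraries outside the comparison.

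Total counts ran from 75153 to 5635646 in the arm after 2 °C, from 36026 to 7138863 in the arm after 7 °C and from 809387 to 4094482 in the arm after 11 °C. The medians were 2404910, 2453079 and 2965004. Each arm held 1 library under 1000000 counts: day 55 replicate 1 after 2 °C, day 34 replicate 2 after 7 °C and day 34 replicate 3 after 11 °C. Medians of 15919, 15949 and 16138 gene lines were detected after 2, 7 and 11 °C, and the 10 highest lines took medians of 42.7%, 41.6% and 40.8% of the counts. All 36 libraries carry the word Second in their names, and the words First and Second divide the series into 2 library sets. The names also carry a position, and its column number was 2 or 3 after 2 °C, 4 or 5 after 7 °C and 6 or 7 after 11 °C, so arm and position cannot be told apart.

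Over days 34 to 69, 130 of 11080 genes tested (1.17%) differed between the arms after 2 °C and after 11 °C, 44 higher (0.397%) and 86 lower (0.776%) after 2 °C. The test was edgeR's quasi-likelihood test with day as a factor, and calls required an adjusted p below 0.05. The 44 higher genes had a median log2 fold change of 1.12 ± 0.37 (SD across genes) and the 86 lower genes one of -1.15 ± 0.44. Of the 130 genes, 90 differed at least 2-fold. The smallest called difference was 0.62 on the log2 scale, and the median standard error over all genes was 0.27. Counting the called ones, 20.8% of genes had an unadjusted p under 0.05 (2301 genes). The 130 genes had a median abundance of 4.07 in log2 counts per 1000000 (CPM), against 3.80 over all genes tested. The direction was the same at all 4 days in 95.4% of them and in 2105 of all 11080 genes tested, and choosing genes by their mean difference favours this. Single-day medians were 0.90, 1.15, 1.07 and 1.21 for the higher genes and -0.90, -1.09, -1.09 and -1.28 for the lower genes at days 34, 41, 55 and 69, from the libraries that chose them.

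The count depended on single replicates, days and libraries. It was 0 without replicate 2 of both arms (525 genes at an unadjusted p under 0.05), 3 without replicate 3 and 95 without replicate 1. It was also 0 without day 41 (1450 genes at an unadjusted p under 0.05), 1 without day 69 and 750 without day 34. Leaving out single libraries after 2 °C gave 67, 222 and 71 genes for replicates 1, 2 and 3 of day 34, then 44 for replicate 1 of day 41, 250 and 53 for replicates 1 and 2 of day 55, and 72, 65 and 61 at day 69. Leaving out single libraries after 11 °C gave 1108, 33 and 202 genes for replicates 1, 2 and 3 of day 34, then 54, 52 and 206 at day 41, 47 and 420 for replicates 2 and 3 of day 55, and 254, 42 and 62 at day 69. In 20 of the 24 cases the count moved by more than 1.5 times, and the other 4 are not listed. The 130 genes were all called by DESeq2 as well, within its 1004 calls.

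**Figure D1:**
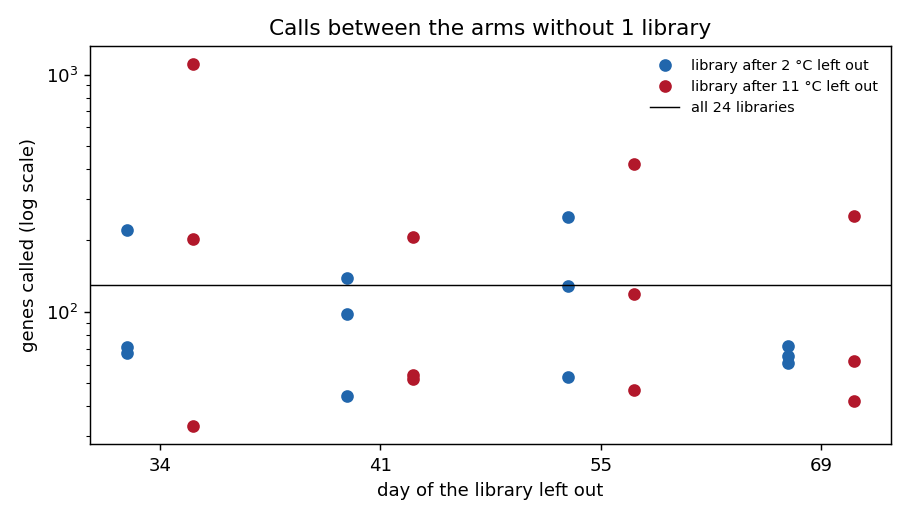
Number of genes called between the arms after 2 °C and after 11 °C (vertical axis, log scale) when 1 library was left out, by the day of that library; the line marks the 130 genes called with all 24 libraries. The points run from 33 to 1108, and the library that raised the count most when left out was day 34 replicate 1 after 11 °C.

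At single days, with 3 libraries against 3, few genes passed. By edgeR, 0 of 9860 genes were called at day 34, 0 of 9427 at day 41, 9 of 10285 (0.0875%) at day 55 and 0 of 9621 at day 69. DESeq2 called 10, 43, 63 and 308 genes at these days. The numbers at an unadjusted p under 0.05 were 294 (2.98%), 993 (10.5%), 964 (9.37%) and 1881 (19.6%). All 9 genes called at day 55 were higher after 2 °C, and the count was 0 (951 at an unadjusted p under 0.05) without the library of 75153 counts. Without replicate 2 of day 55 it was 20, without replicate 3 it was 445, and without replicate 1 it was 0 (388). At day 69 the count was 2294 without replicate 1.

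Whether the difference changed between the days was tested as an interaction. With day as a factor 0 of 11812 genes were called by edgeR (693 at an unadjusted p under 0.05) and 18 by DESeq2. With day as a number 0 of 11408 were called by edgeR (1045 at an unadjusted p under 0.05) and 14 by DESeq2. The 14 genes called by DESeq2 for the slope were 6 with a rising and 8 with a falling difference.

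Whole profiles of the arms were not shown to stand apart beyond the spread within arms. The mean Euclidean distance in log2 CPM over 12112 genes was 132.0 between libraries after 2 °C and after 11 °C of the same day and 123.4 between libraries of the same arm and day. The difference of 8.62 had a one-sided permutation p of 0.108, and 0.324 after adjustment over 3 pairs of arms. By day the difference was 0.0648, 7.50, 8.68 and 18.2 at days 34, 41, 55 and 69. Without replicate 2 it was -2.23, so its sign rests on these libraries. The pair of arms after 2 °C and after 7 °C had a difference of 2.40 (permutation p of 0.262) and the pair after 7 °C and after 11 °C one of -4.87 (permutation p of 0.716). Over libraries with at least 1000000 counts, principal component 1 took 43.3% of the variance, and 11.7% of that was between arms. Scores on it were 15.9 ± 37.6 for the arm after 2 °C, 8.27 ± 50.7 for that after 7 °C and -24.2 ± 59.3 for that after 11 °C (SD, n = 11 each), a wide overlap. Of the components 2, 3 and 4, which took 7.81%, 6.99% and 3.92% of the variance, 11.9%, 19.9% and 35.5% was between arms. On component 4 the scores were 8.93 ± 8.14 in the arm after 2 °C, 3.57 ± 7.73 in that after 7 °C and -12.5 ± 19.3 in that after 11 °C.

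Libraries of the same arm and day differed along 1 main axis, which held 50.7% of the variance within groups over the libraries with at least 1000000 counts. Across 11080 genes, the difference between the arms after 2 °C and after 11 °C correlated with the gene's weight on this axis at r = 0.67. Both values come from overlapping libraries, and the correlation describes these genes only. With the axis as a covariate, in libraries with at least 1000000 counts, 2883 genes were called (1571 higher, 1312 lower), all 130 among them. The axis was computed from the same counts, and the share of lower genes was 45.5% there against 66.2% of the 130. What the axis stands for was not tested.

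Gene 8249 was higher after 2 °C. Its level was 66.6 CPM in the lowest, 355 in the median and 1003 in the highest of the 12 libraries after 2 °C, against 16.1, 45.7 and 179 CPM in the 12 libraries after 11 °C. The arms did not overlap at days 34, 41 and 55 and overlapped at day 69. The day means after 2 °C were 878 ± 137.1, 469 ± 131, 156.4 ± 4.48 and 219 ± 141.5 CPM at days 34, 41, 55 and 69 (SD, n = 3), against 105.1 ± 73.3, 56.4 ± 21.4, 58.1 ± 51.01 and 41.9 ± 27.1 CPM after 11 °C. The log2 fold change was 2.42 ± 0.40 (SE, adjusted p of 0.00759 by edgeR). The libraries after 7 °C ran from 7.98 to 389 CPM, with a median between the other medians. Pretreatment buds had 1118 to 2803 CPM, and the constant arms at days 34 to 69 had medians of 2539 CPM at 2 °C, 263 at 4 °C, 104.1 at 7 °C, 39.9 at 11 °C and 71.9 at 22 °C, where the highest library had 1757. The median after 2 °C thus lay under that of buds that stayed at 2 °C and over that of buds that stayed at 7 °C. Their libraries ran from 76.5 to 4116 CPM at 2 °C and from 62.8 to 286 at 7 °C, overlapping those after 2 °C. These differences were not tested, and the constant arms at 2 and 7 °C lie in another library set.

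Gene 6190 was also higher after 2 °C and separated the arms at every day. It had 8.44, 24.1 and 60.5 CPM in the lowest, median and highest libraries after 2 °C, against 1.48, 6.61 and 13.2 CPM after 11 °C. At none of the 4 days did a library after 2 °C fall as low as one after 11 °C, although the value of day 55 replicate 1 after 2 °C rests on 1 count. The log2 fold change was 1.97 ± 0.25 (SE, adjusted p of 2.2e-04 by edgeR). The median after 7 °C was 9.39 CPM, with a range of 0 to 18.4, the 0 being the library of 36026 counts. Pretreatment buds had 132 to 179 CPM, and in all constant arms tested the gene fell over days 7 to 69, with log2 changes of -2.42 at 2 °C, -3.19 at 4 °C, -4.07 at 7 °C and -5.81 at 11 °C. The adjusted p of these slopes in edgeR was at most 2.7e-04. Gene 8249 fell over the same days at 4, 7 and 11 °C, with changes of -4.57, -4.61 and -5.58, whereas its slope at 2 °C was -0.36 (adjusted p of 0.743 by edgeR).

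Gene 16282 was lower after 2 °C. It had 0, 11.5 and 34.9 CPM in the lowest, median and highest libraries after 2 °C, against 5.85, 87.2 and 463 CPM after 11 °C. The arms overlapped at days 34, 41 and 55 and separated at day 69, where the means were 15.9 ± 10.5 CPM after 2 °C and 279 ± 215 CPM after 11 °C (SD, n = 3). The library at 0 is that of 75153 counts, in which 3 counts amount to 39.9 CPM. The log2 fold change was -2.72 ± 0.55 (SE, adjusted p of 0.0160 by edgeR). The libraries after 7 °C spanned 5.36 to 460 CPM with a median of 25.4. The constant arms at days 34 to 69 had medians of 2.97 CPM at 2 °C, 50.9 at 4 °C, 40.4 at 7 °C, 20.6 at 11 °C and 268 at 22 °C. The median after 11 °C thus exceeded that of buds that stayed at 11 °C, in another library set. Those buds ran from 2.81 to 54.0 CPM, so the ranges overlapped, and this difference was not tested.

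Gene 31600 was lower after 2 °C, with 0, 6.19 and 13.3 CPM in the lowest, median and highest libraries, against 1.24, 29.3 and 53.4 CPM after 11 °C. The arms overlapped at day 34 and separated at days 41, 55 and 69. At day 55 the 0 after 2 °C is the library of 75153 counts, where 3 counts amount to 39.9 CPM. That library cannot show a separation from the 28.1 to 53.4 CPM after 11 °C. The log2 fold change was -1.86 ± 0.31 (SE, adjusted p of 0.00759 by edgeR), and the median after 7 °C was 12.3 CPM with a range of 0 to 48.9. At constant 11 °C the gene rose over days 7 to 69 by 2.64 on the log2 scale (adjusted p of 0.0132 by edgeR), while its change at constant 7 °C was 0.02 (adjusted p of 0.994 by edgeR). The slope at 11 °C starts near the floor. The median there at days 7 to 26 was 0.985 CPM, and day 7 included libraries of 57968 and 27485 counts. At 2 and 4 °C the gene did not pass the filter on low counts. Before the move, at days 7 to 26, constant 2 °C over 11 °C gave gene 8249 a log2 fold change of 2.21 (adjusted p of 0.00510 by edgeR). Gene 16282 had 1.87 there (adjusted p of 0.0207 by edgeR), the opposite sign to that after the move. Gene 6190 had 0.28 (adjusted p of 0.539 by edgeR), and gene 31600 was not tested at those days. None of the 4 genes changed direction under any alternative tried for the difference after the move. They were chosen in these same libraries for a large difference of the same sign at all 4 days, which by itself favours this. Without replicate 2 none of them passed, with adjusted p of 0.485, 0.138, 0.896 and 0.871 for genes 8249, 6190, 16282 and 31600. Without day 41 none passed either, with adjusted p of 0.141, 0.0607, 0.162 and 0.141. Without day 69 genes 8249, 16282 and 31600 lost their calls, with adjusted p of 0.0643, 0.202 and 0.102. Without replicate 3 genes 16282 and 31600 did (adjusted p of 0.0678 each), and without replicate 1 gene 16282 did (adjusted p of 0.0640). Gene 16282 was the only one of the 4 to lose its call without a single library, day 34 replicate 2 after 11 °C (adjusted p of 0.0580).

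**Figure D2:**
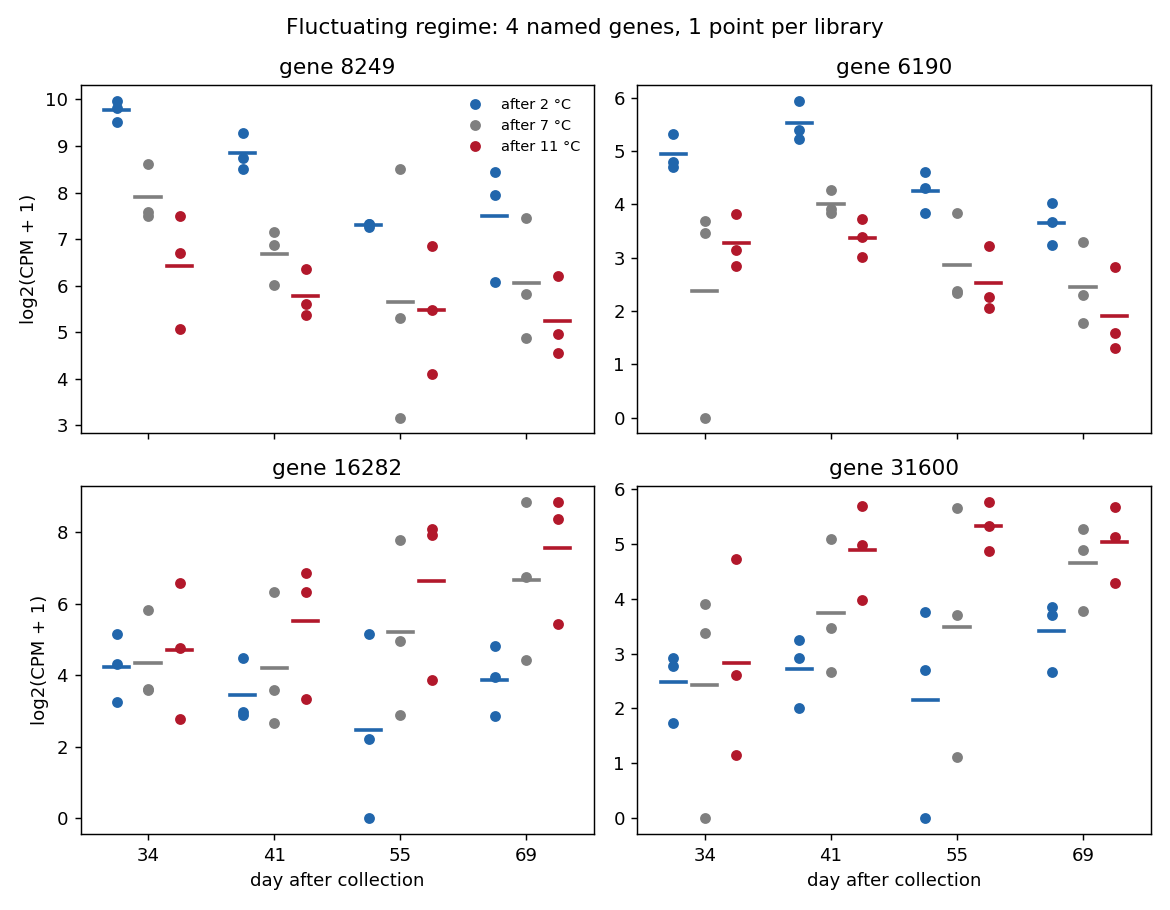
Levels of the 4 named genes as log2(CPM + 1) (vertical axis) by day after collection in the fluctuating arms after 2, 7 and 11 °C, 1 point per library, with a short line at the mean of 3. Gene 6190 separates the arms after 2 °C and after 11 °C at all 4 days, gene 8249 at the earlier 3, gene 31600 at the later 3, and gene 16282 at day 69. At day 55 the library of 75153 counts after 2 °C is too shallow to place gene 31600. Gene 6190 rests on 1 count in that library.

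The arm after 7 °C took no part in the choice of the 130 genes. Its mean log2 CPM lay between those of the outer arms in 93.1% of them and in 44.6% of all genes tested. Choosing genes with a large difference between the outer arms by itself makes a value between them more likely. Of the 44 genes higher after 2 °C, 13 were nearer to the arm after 2 °C than to the arm after 11 °C, and of the 86 lower genes 52 (60.5%) were. Of all genes tested 56.9% were.

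Against its neighbours the middle arm gave few calls. Between the arms after 2 °C and after 7 °C, 1 of 10482 genes (0.00954%) was called by edgeR (587 at an unadjusted p under 0.05) and 45 by DESeq2. Between the arms after 7 °C and after 11 °C, 0 of 11249 were called by edgeR (1309 at an unadjusted p under 0.05) and 21 by DESeq2. Without replicate 1 there were 50 calls after 7 °C against after 11 °C. After 2 °C against after 7 °C there were 0 without each replicate in turn (802, 511 and 246 genes at an unadjusted p under 0.05). Both comparisons share an arm with that of 2 °C and 11 °C. The 44 higher genes had a median log2 fold change of 0.72 ± 0.39 after 2 °C over after 7 °C (SD across 44 genes) and, over the 39 tested there, of 0.50 ± 0.27 after 7 °C over after 11 °C. For the lower genes the values were -0.53 ± 0.31 (77 genes) and -0.56 ± 0.25 (86 genes).

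A fit over all 36 libraries with the phase I temperature as a number called 221 of 10935 genes (2.02%), of which 77 were lower with a warmer phase I and the rest higher. The median size of their slopes was 0.114 on the log2 scale per °C. Without replicate 2 this count was 1 (717 at an unadjusted p under 0.05), and without replicate 3 it was 2 (2290). Leaving out single libraries gave 72 to 656. The count moved by more than 1.5 times in 16 of 36 cases. It was higher without day 34 replicate 2 after 2 °C (427), day 69 replicate 1 after 7 °C (333), and day 34 replicate 1 (656) or day 55 replicate 3 (443) after 11 °C. It was lower, down to 72, without day 34 replicate 1, day 41 replicate 1, day 55 replicate 2 or any day 69 library after 2 °C, and without day 34 replicate 2, day 41 replicates 1 or 2, day 55 replicate 2 or day 69 replicates 2 or 3 after 11 °C. At day 34 alone, 219 of 9351 genes (2.34%) were called between the arms after 2 °C and after 7 °C. That count was 1 without the library after 7 °C that held 36026 counts. At days 41, 55 and 69 it was 0 by edgeR, with 362, 589 and 394 genes at an unadjusted p under 0.05. Between the arms after 7 °C and after 11 °C 1 gene (0.0126%) was called at day 34.

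The genes that the phase I temperature had moved before the transfer were then followed. From the constant arms at days 7 to 26, none of whose libraries enter the fluctuating arms, 720 genes were at least 2-fold higher and 718 at least 2-fold lower at 2 °C than at 11 °C, among 2899 of 10512 genes called (27.6%). Without replicate 2 there were 757 calls. These arms include libraries of 57968 and 27485 counts (11 °C, day 7 replicates 1 and 3) and of 116585 (2 °C, day 13 replicate 1). Libraries with at least 1000000 counts gave 2632 calls, 2135 of them among the 2899. The positions in the library names differed between these arms too, so arm and position cannot be told apart. In the fluctuating arms the 594 tested genes of the higher list had a median log2 fold change of -0.05 after 2 °C over after 11 °C, and the 695 tested genes of the lower list one of -0.04, beside -0.03 over all genes tested. By day the median of the higher list was -0.11, 0.12, -0.25 and -0.09 at days 34, 41, 55 and 69, beside -0.05, 0.01, -0.18 and -0.02 over all genes. That of the lower list was -0.07, -0.18, -0.03 and -0.02. The median of the higher list was thus above 0, and above that of all genes, at day 41 only. That of the lower list was below 0 at all 4 days. Beside all genes, it lay furthest below at day 41 (-0.18 against 0.01) and lay above at day 55 (-0.03 against -0.18).

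In buds that stayed at constant 2 and 11 °C, the same lists kept medians of 1.17 and -1.10 over days 34 to 69. There, with 12 libraries against 12, 3515 of 11069 genes (31.8%) were called, and the median standard error of 0.26 was close to the 0.27 of the fluctuating arms. The difference between arms begun at 2 and at 11 °C was compared between the fluctuating and the constant arms, gene by gene. This interaction over days 34 to 69 called 13.9% of genes. The constant arms were still at 2 and 11 °C on those days, so their current and earlier temperatures cannot be told apart. Of the 685 tested genes of the higher list, 337 had a lower difference in the fluctuating arms and 0 a higher one. Of the 712 tested genes of the lower list, 304 had a higher difference and 0 a lower one. Without replicate 2 the test called 319 genes in all, and without replicate 3 it called 919, against 1687 with all libraries.

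**Figure D3:**
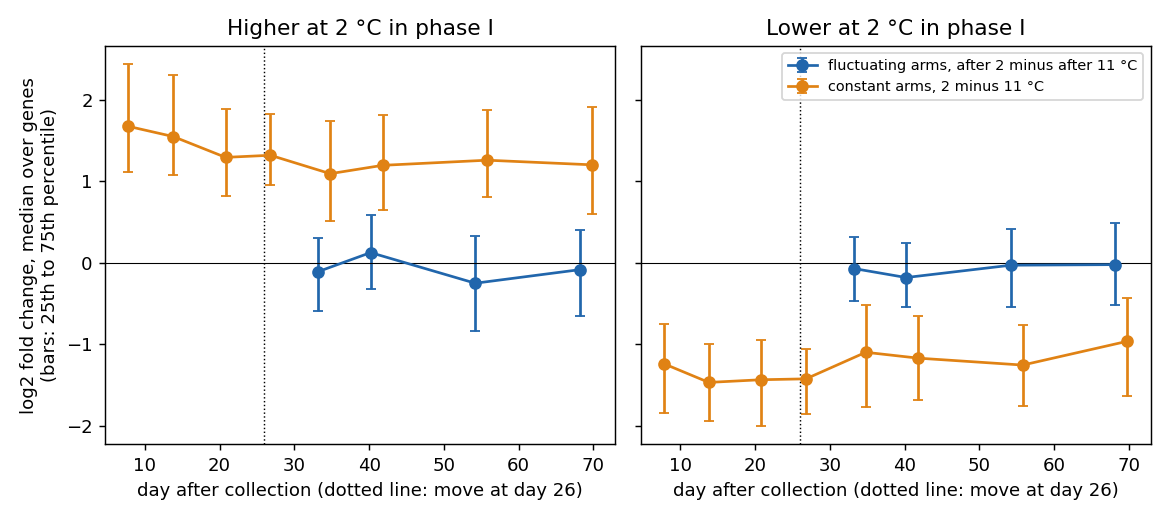
Median log2 fold change over the genes that were at least 2-fold higher (left) or lower (right) at constant 2 °C than at 11 °C over days 7 to 26, by day after collection, for the fluctuating arms (after 2 °C minus after 11 °C) and for the constant arms; bars run from the 25th to the 75th percentile of genes. In the constant arms the medians stay near 1 or -1 after day 26, while in the fluctuating arms they lie between -0.25 and 0.12; the points before day 27 come from the libraries that chose the genes.

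Of the genes on these lists, 32 were called between the fluctuating arms, 20 from the higher list (3.37% of those tested) and 12 from the lower (1.73%), beside 1.17% of all genes tested. In 16 of the 32 the direction was that of phase I and in 16 it was the opposite. The lists were unlike in this: 6 genes of the higher list had the phase I direction and 14 the opposite, against 10 and 2 of the lower list. At days 7 to 26, 42 of the 44 higher and 73 of the 86 lower genes were also tested. Among these, 59 (51.3%) had the same sign as in the constant arms at those days, and over all genes tested in both 49.9% did. Across those 10054 genes the log2 fold changes correlated at r = -0.01. The called genes thus matched the sign of the early difference between 2 and 11 °C about as often as all genes did.

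At days 34 to 69 the constant arms showed the same sign in 90 (73.2%) of the called genes tested there, against 57.7% of all 10464 genes tested in both. The correlation of log2 fold changes across genes was 0.24 over all genes tested and 0.66 over the called ones. Keeping only genes with a large difference by itself raises such a correlation and favours a shared sign. The values for called and for all genes are therefore not alike in kind. The constant and fluctuating arms share no library, and genes are not independent replicates. In the constant arms of those days 60 of these genes were called with the same sign and 14 with the opposite sign, beside 2101 and 1231 of all genes tested in both. The 44 higher genes had a median log2 fold change of 0.92 ± 1.38 there, with 38 of 44 above 0, and 79 of the 86 lower genes one of -0.44 ± 1.04, with 52 below 0 (SD across genes).

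The level of the called genes in each arm is shown by their mean log2 CPM per library, in libraries with at least 1000000 counts at days 34 to 69. For the 44 genes the mean was 4.95 ± 0.38 after 2 °C, 4.23 ± 0.58 after 7 °C and 3.75 ± 0.47 after 11 °C (SD, n = 11 each), as the choice of genes implies for the outer arms. In the constant arms, which were not used to choose them, it averaged 5.11 ± 0.31 at 2 °C (n = 12), 4.15 ± 0.34 at 4 °C (n = 10), 4.21 ± 0.51 at 7 °C (n = 12), 4.03 ± 0.24 at 11 °C (n = 11) and 4.09 ± 0.61 at 22 °C (n = 7). Among the constant arms 2 °C had the highest mean, and those at 4, 7, 11 and 22 °C lay within their spread of each other; these differences were not tested. The 86 genes stood at 4.00 ± 0.20 in the arm after 2 °C, at 4.53 ± 0.49 after 7 °C and at 5.07 ± 0.50 after 11 °C. The constant arms averaged 3.80 ± 0.29 at 2 °C, 4.78 ± 0.43 at 4 °C, 4.29 ± 0.27 at 7 °C, 4.26 ± 0.28 at 11 °C and 4.31 ± 0.45 at 22 °C. The mean after 11 °C exceeded those at constant 7 and 11 °C here, but these constant arms lie in the First library set. Constant 4 and 22 °C lie, like the fluctuating arms, in the Second. Regime and set cannot be told apart for constant 7 and 11 °C.

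**Figure D4:**
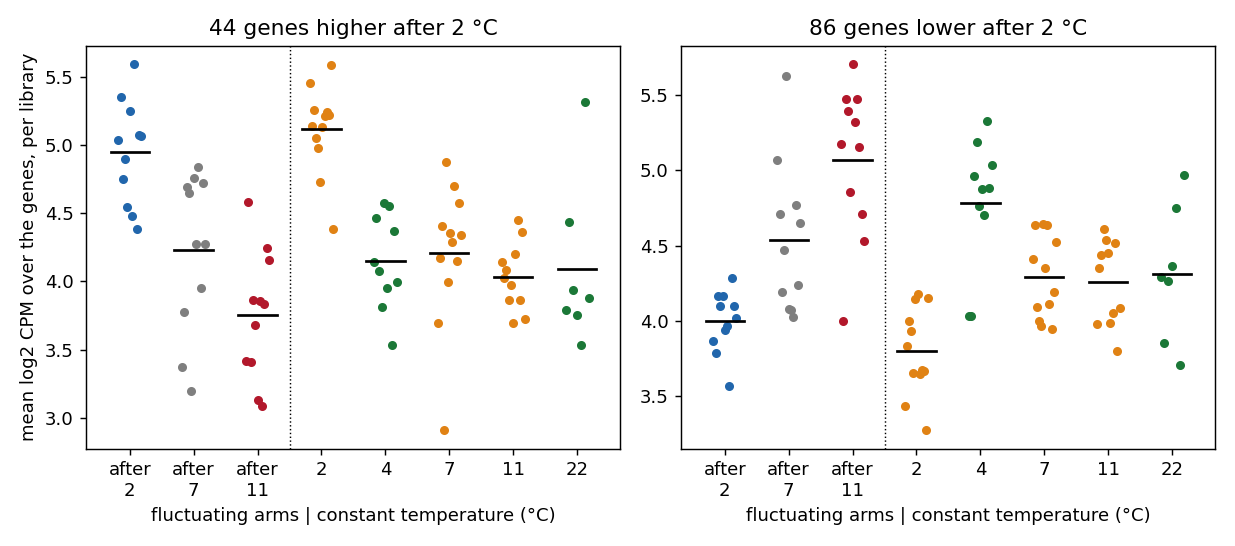
Mean log2 CPM over the 44 genes higher (left) and the 86 genes lower (right) after 2 °C than after 11 °C, 1 point per library with at least 1000000 counts at days 34 to 69; lines mark arm means. Left of the dotted line stand the fluctuating arms by phase I temperature and right of it the constant arms, orange for the First and green for the Second library set. Constant 2 °C lies near the arm after 2 °C in both panels.

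The called genes also had a common direction over time in arms outside the comparison, which was looked at after the counts above were known. At constant 7 °C over days 7 to 69 (24 libraries), 41 of the 43 tested genes that were higher after 2 °C had a falling slope, against 49.7% of all genes tested, and 22 of them fell by edgeR's test. Of the 75 tested genes that were lower after 2 °C, 66 had a rising slope, against 50.3% of all, and 22 of them rose. At 7 °C no member of either group was called in the other direction. At that temperature 9.31% of genes were called in all. The median change over these 62 days was -1.79 ± 1.49 and 0.82 ± 0.94 on the log2 scale (SD across genes), beside 0.01 over all genes. All slopes, here and below, used every library of the arm, and no limit on depth was tried. Shallow libraries among them include day 13 replicate 3 at 7 °C (50271 counts) and day 7 replicates 1 and 3 at 11 °C (57968 and 27485).

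Slopes at the other constant temperatures were also counted; 17.7%, 18.7% and 8.94% of genes were called at 2, 4 and 11 °C. Falling slopes were found in 35 of 40 genes at 4 °C, 35 of 41 at 11 °C and 33 of 44 at 2 °C among the genes higher after 2 °C. Rising slopes were found in 52 of 78 genes at 4 °C, 56 of 78 at 11 °C and 35 of 69 at 2 °C among the genes lower after 2 °C, where the split was near even. At 2 °C members were called in both directions, 13 falling and 3 rising among the higher genes and 8 rising and 4 falling among the lower genes. At 4 and 11 °C 25 and 21 of the higher genes were called falling, 19 and 15 of the lower genes were called rising, and 0 the other way. Across all genes tested in both, the difference between the arms correlated with the slope at r = 0.09 at 2 °C, -0.17 at 4 °C, -0.20 at 7 °C and 0.01 at 11 °C (9732 to 10370 genes). In the fluctuating arm after 7 °C over days 34 to 69 (12 libraries), the correlation was -0.62 over 9874 genes. There 36 of 38 higher genes had a falling slope and 72 of 80 lower genes a rising one, beside 44.6% falling and 55.4% rising over all genes, while edgeR called 0 of 9911 genes (974 at an unadjusted p under 0.05; no other tool was run). The weights on the main axis within groups correlated with the slope at r = 0.02 at constant 7 °C and at -0.65 in the arm after 7 °C, whose libraries helped to define the axis, beside 0.67 for the difference between the arms. The part of the axis in the common direction was not tested.

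**Figure D5:**
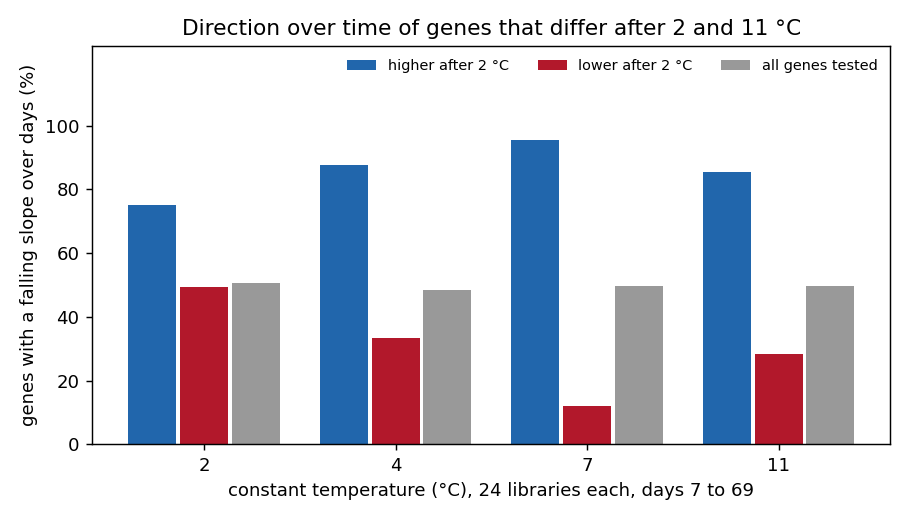
Share of genes with a falling slope over days 7 to 69 at constant 2, 4, 7 and 11 °C (24 libraries each), for the genes higher after 2 °C than after 11 °C, the genes lower after 2 °C, and all genes tested. The bars stand at 95.3% and 12.0% for the called groups at 7 °C and near 50% for all genes.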

How the data were processed

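Counts of reads per gene line were deposited by the authors as whole numbers without normalization, per the values of the table. Per the labels' protocols, libraries came from QuantSeq, which sequences transcripts from their 3′ ends, and levels are therefore not scaled by length. FastQC, STAR and DESeq2 are named in the submitters' processing notes, with no role given. The genome build, annotation and counting tool are not given in the sources used here. Values given as SD describe the spread across libraries or genes, as stated beside them. The SE values come from edgeR's fits and, like its p-values, reflect the spread between these libraries. The CPM level given for a small count in a shallow library covers counting error only.

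Each comparison was fitted in R 4.3.3 by edgeR 4.0.16 (filterByExpr, TMM, glmQLFit, glmQLFTest) on its own libraries, with p-values adjusted by the Benjamini-Hochberg method over all genes tested. CPM are per library total. Alternatives included DESeq2 1.42.0. The script was tested on simulated counts, drawn independently for each gene and library. They held no axis shared between genes, so that test does not cover the spread within groups described above.

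The members and lists were chosen with earlier results of these data known. Named genes were, among genes called with at least 10 CPM on average and the same sign at all 4 days, those with the 2 largest and the 2 smallest log2 fold changes. Arm labels were permuted within days (100000 resamples) for distances. The interaction of phase I temperature with regime, the single-day comparisons with the arm after 7 °C, the slopes at constant temperature and the libraries' set means were added after the data had been seen.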

Additional observations from a re-analysis of the deposited data

Results flagged for a closer look

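The difference between arms begun at 2 and at 11 °C was unequal in the fluctuating and in the constant arms, by a test of the difference itself. The constant arms were still at 2 and 11 °C on the days tested, so their difference includes the current temperature. Over days 34 to 69, edgeR's interaction test called 1687 of 12151 genes. The difference between 2 and 11 °C was higher in the fluctuating arms in 793 of them and lower in 894. The count was 319 without replicate 2. The constant arms lie in the First library set and the fluctuating arms in the Second.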

How the results depend on the processing

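Single-day comparisons had 3 libraries a side, and those of days 34 and 55 included libraries under 1000000 counts. At days 41 and 69 all libraries held more than that. Differences under 0.62 on the log2 scale were not called over all days. For 2 °C against 11 °C over all days, DESeq2 called 1004 genes, no filter on low counts 1096 (120 of the 130 among them), libraries with at least 1000000 counts 326, the main axis within groups as a covariate 387, and the same axis taken from those deeper libraries 2883. Leaving out replicates or single libraries gave 0 to 1108. Leaving out day 34 gave 750, day 41 gave 0 and day 69 gave 1. At single days, DESeq2 called 10, 43, 63 and 308 genes at days 34, 41, 55 and 69, and no filter 45, 223, 338 and 1033. RLE scaling gave 0 at day 55 (1000 at an unadjusted p under 0.05), as did libraries with at least 1000000 counts (951). Without a replicate the range was 0 to 3 at day 41, 0 to 445 at day 55 and 0 to 2294 at day 69.

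The change with day had 18 calls by DESeq2 and 0 to 2 without a replicate, and the slope over days 14 by DESeq2. For 2 °C against 7 °C the count was 45 by DESeq2, 60 without a filter, 3 in libraries with at least 1000000 counts, 56 with the axis of the deeper libraries and 0 to 3 without a replicate or a single library. For 7 °C against 11 °C these were 21 by DESeq2, 6 without a filter, 2266 with that axis, 0 to 50 without a replicate and 0 without any single library (798 to 2167 at an unadjusted p under 0.05). For the trend they were 719 by DESeq2, 340 in the deeper libraries, 2374 with that axis and 1 to 656 without a replicate or a single library. At day 34 in the deeper libraries, 2 °C against 7 °C had 1 call and 7 °C against 11 °C had 0 (217 at an unadjusted p under 0.05), against 1 with all libraries. Constant 2 °C against 11 °C at days 7 to 26 had 757 to 2191 calls without a replicate, and the interaction with regime 319 to 1515. The distance between the arms after 2 °C and after 11 °C ran from -2.23, without replicate 2, to 14.99. The cause of these moves was not tested. An axis within groups, used as a covariate, takes up spread within groups only. Larger counts with it do not show that more genes differ. Fewer libraries enter each fit that leaves some out.

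Replicate numbers were checked for pairing: the deviations of same-numbered libraries after 2 °C and after 11 °C correlated at a mean of 0.145 over 12 pairs (-0.258 to 0.510, 7 over 0.1), and 7 of 12 libraries correlated best with their own number. This does not settle whether the numbers pair libraries, and the main fits did not pair them. Over all days, the block used next gave each number the same effect at every day, so it did not model pairs within a day. With the replicate number as a block, 177 genes were called over all days, 5, 5, 23 and 809 at days 34, 41, 55 and 69, and 1 for the slope over days. Of 217 alternatives for counts of genes and for the distance, 94 moved by more than 1.5 times and 1, the distance without replicate 2, changed sign. For the 4 named genes, 38 alternatives each left the direction as it was, which their choice favours. The call was lost in 3, 2, 6 and 4 of these alternatives for genes 8249, 6190, 16282 and 31600. The axis of the deeper libraries, the depth limit at single days, single libraries left out of the comparisons with 7 °C and of the trend, and all alternatives of the interaction with regime were chosen after the data had been seen.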
